A study of Glycine max with 12 samples.

Results

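The genes described here are 152 soybean genes, of 47095 in the deposited count table, whose transcripts were moderately less abundant in the seeds of all 3 transgenic soybeans than in wild-type seeds. They were chosen from CPM (a gene's count per 1000000 counts of its library). Group means, each with 0.05 CPM added, had to be at least 1.5-fold below wild type in all 3 overexpressors and under 8-fold below in at least 1. The wild-type mean had to reach 2 CPM, which 28362 genes did, and the highest of the 9 overexpressor libraries had to lie below the lowest of the 3 wild-type libraries. LAR1, a gene of the flavonoid pathway that otherwise met the rule, was left out by it. The members are 0.536% of the 28362 genes, and the same rule in the opposite direction found 151 genes.

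The groups were seeds of soybean overexpressing GmZF351, soybean overexpressing GmZF392 and soybean overexpressing GmNFYA, set against seeds of the wild-type cultivar Jack. Each group had 3 libraries of total seed RNA from the stage labelled H3, a term the sources used here do not define. The library titles give each overexpressor a single code, so each may be 1 transgenic line. Neither the promoter of the transgenes, the number of plants in a library nor the time of day of collection is given in the labels, and the p-values below measure only the spread between these libraries, which may be technical. GmZF351 and GmZF392 are CCCH-type zinc finger proteins and GmNFYA is a subunit of the NF-Y transcription factor complex. All 3 are known as regulators of oil accumulation in soybean seed. No gene of the list is one of the 3 overexpressed genes.

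Libraries held 17809547 to 22652420 counts, so a count of 0, which allows up to 3 counts, corresponds to 0.132 to 0.168 CPM; such limits cover counting error only. Each overexpressed gene was highest in its own 3 libraries. GmZF351 stood at 799.1 to 1014.5 CPM in its overexpressor and at 17.4 to 21.7 CPM in wild type, GmZF392 at 536.7 to 777.1 CPM against 68.9 to 76.1 CPM in wild type, and GmNFYA at 280.9 to 320.6 CPM against 39.6 to 45.9 CPM in wild type. The GmZF351 and GmZF392 loci (Glyma.06G290100 and Glyma.12G205700) were identified from knowledge of the study. Libraries of 1 genotype correlated at 0.9429 to 0.9934 over log2 CPM and libraries of different genotypes at 0.8891 to 0.9819. Summed CPM of 10 embryo and maturation markers, all found, was 2861.4 to 3432.8 in the GmZF351 overexpressor, 4015.2 to 4621.0 in the GmZF392 overexpressor, 2971.6 to 3141.9 in the GmNFYA overexpressor and 1465.6 to 1544.6 in wild type. Of 10 seed coat markers 9 were found, with sums of 4816.3 to 5832.2, 4589.1 to 5178.4 and 4386.3 to 4852.8 in the same order of overexpressors and 5107.8 to 5333.6 in wild type, and ANR2 among them lay near 0 in all groups. PRX2 carried most of each sum, at means of 3623.4, 3070.3 and 2827.5 CPM in the overexpressors and 3023.0 CPM in wild type. Of 8 tested, 2, 1 and 1 were called lower (1.05%, 0.528% and 0.599% of all genes tested) and none higher. LAR1, which the rule left out, was called in each. HPS was called only in the GmZF351 overexpressor (means 94.19, 307.4 and 369.4 CPM, against 206 CPM in wild type). ANS2, ANS3, DFR1 and DFR2 averaged below wild type throughout, without a call. ANR1, also without a call, averaged 354.1, 415.5 and 295.7 CPM in the overexpressors and 388.8 CPM in wild type. The pod and leaf storage protein gene VSPA, found of 2 leaf and pod markers, stood at 24.9 to 33.3, 56.0 to 72.7 and 114.3 to 120.7 CPM in the overexpressors and at 93.1 to 106.6 CPM in wild type. The sum of the embryo and maturation markers was thus above wild type in all 9 overexpressor libraries while the members were below it. More than any other gene in that sum, the storage globulin gene CG-1 carried it, with means of 1683.7, 2389.4 and 1757.6 CPM in the overexpressors and 600.2 CPM in wild type. Of its 10 genes 7, 8 and 6 were called higher and none lower by edgeR, against 1.13%, 1.67% and 0.966% of all genes tested called higher. LEC1-A and LEC1-B, which encode embryo regulators, were not called in any overexpressor (adjusted p = 0.535 to 0.987), and FAD2-1A averaged 19.82 CPM in the GmNFYA overexpressor and 20.94 CPM in wild type. The part of the tissue make-up or stage of the seeds in the members' levels was not tested. In these bulk samples, fewer cells of a type and less RNA per cell cannot be told apart.

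Several of the members belong to well-studied plant systems. GIGANTEA and the pseudo-response regulators (PRR) are parts of the circadian clock, whose transcripts rise and fall over the day, and in soybean they also set flowering time and maturity. HSP90 proteins fold and stabilise client proteins such as kinases and receptors, and small heat shock proteins hold unfolded proteins until they can be refolded. SWEET proteins let sugars cross membranes down their gradient, light-harvesting proteins carry the chlorophyll of the photosynthetic antenna, and ferritin stores iron in plastids. Green embryos of developing soybean seed hold active chloroplasts.

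The values in the following account of overexpressors against wild type chose the members, so they describe the list and carry no test. The 3 comparisons also share the same 3 wild-type libraries. The median member stood 1.995-fold below wild type in the GmZF351 overexpressor, 1.944-fold below in the GmZF392 overexpressor and 1.871-fold below in the GmNFYA overexpressor. On the log2 scale the medians were -1.0, -0.96 and -0.90, against -0.06, 0.00 and -0.03 over all 28362 genes with a wild-type mean of 2 CPM or more. At least 2-fold lower levels were seen for 76 members in the GmZF351 overexpressor, 73 in the GmZF392 overexpressor and 64 in the GmNFYA overexpressor. In all 3 overexpressors together, 39 members were 2-fold or more below wild type, 12 were 3-fold or more below and 4 were 4-fold or more below, while 43 were under 2-fold below in each. Together the members took 2151.5 CPM in the GmZF351 overexpressor, 2384.6 CPM in the GmZF392 overexpressor and 2330.6 CPM in the GmNFYA overexpressor, against 4240.1 CPM in wild type. The sums of single libraries did not overlap, which the rule makes certain (1986.7 to 2602.2 against 4066.0 to 4407.4 CPM).

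**Figure D1:**
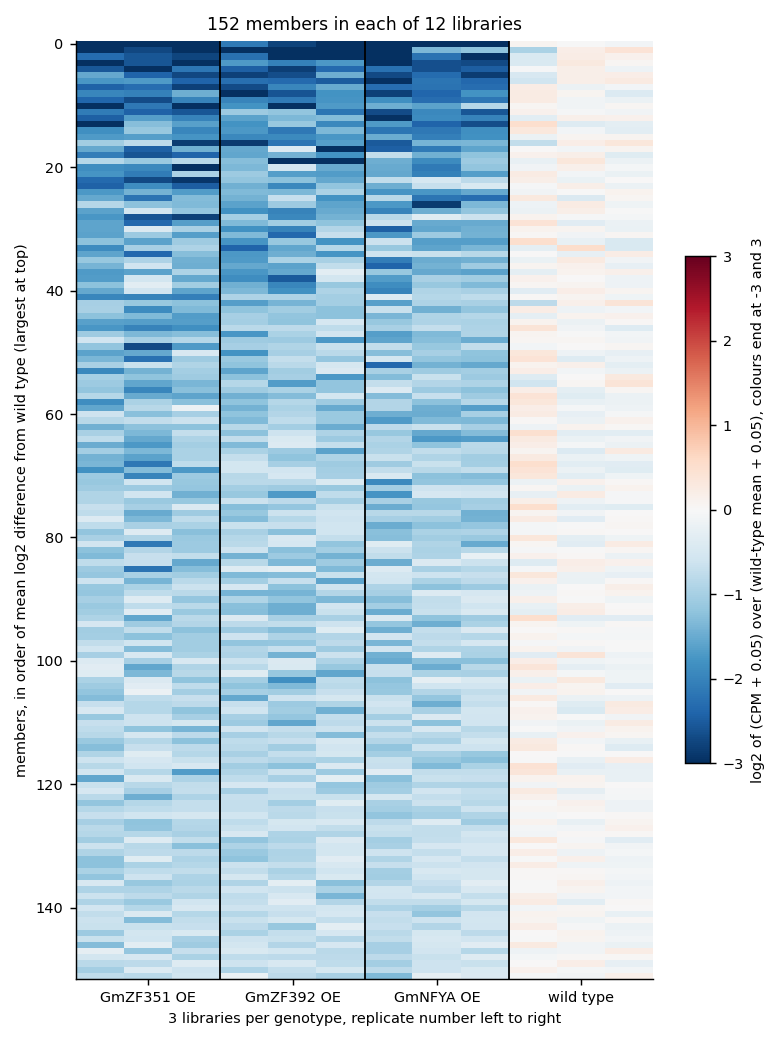
Each row is 1 of the 152 members and each column 1 of the 12 libraries; colour gives the log2 ratio of the library's CPM to the wild-type mean, each with 0.05 CPM added. Rows run from the largest mean difference (log2 -3.85, Glyma.03G069100) downward, and the blue of the 9 overexpressor libraries fades to log2 differences near -0.6 at the bottom.

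**Figure D2:**
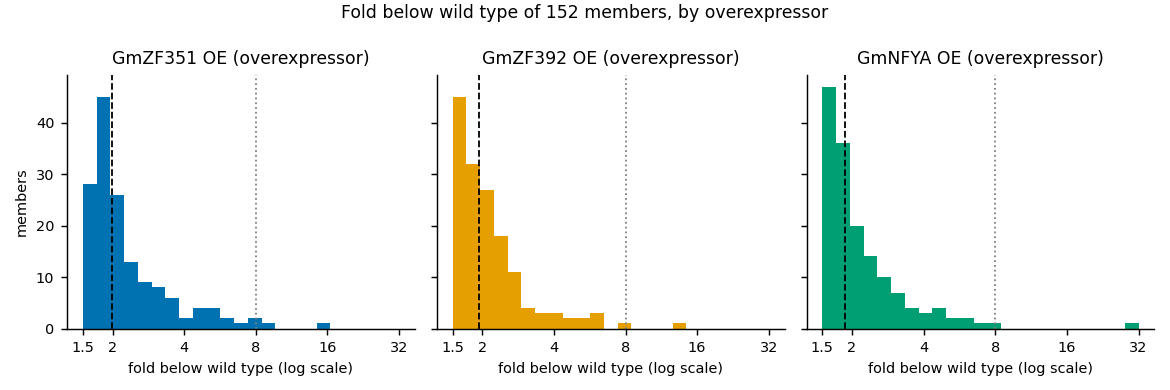
Number of members (vertical axis) by fold below wild type (horizontal axis, log scale) in each overexpressor; the dashed line is the median (1.995, 1.944 and 1.871) and the dotted line the 8-fold limit. Most members lie below 4-fold, and 4 reach 8-fold in at least 1 overexpressor.

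Most members were expressed at low to moderate levels. The wild-type mean was 2 to 5 CPM for 45 members, 5 to 20 CPM for 74, 20 to 100 CPM for 27 and 100 CPM or more for 6. The median wild-type level was 9.478 CPM for members and 16.03 CPM for all genes with a mean of 2 CPM or more. Per exon length, in TPM (counts per base of exon, scaled to 1000000 per library), the medians were 11.3 and 11.9. The median log2 difference lay nearer 0 in the members of higher level. Among the 6 members at 100 CPM or more it was -0.89, -0.71 and -0.76 in the GmZF351, GmZF392 and GmNFYA overexpressors, and among the 45 members at 2 to 5 CPM it was -1.11, -1.07 and -1.08. The median coefficient of variation of the wild-type libraries was 13.5% for members and 13.4% for all genes at 2 CPM or more. The rule uses the wild-type values and the members were lower in level, so nothing is read from the closeness of these medians.

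The separation of the groups was often narrow. The lowest wild-type library was a median of 1.238 times the highest overexpressor library (0.05 CPM added to the overexpressor value). This ratio was under 1.1 for 29 members and 1.5 or more for 22. Non-overlap in this direction, at any fold, held for 685 genes or 2.42% of those at 2 CPM or more, and it held in the opposite direction for 404 genes or 1.42%. Just inside the 1.5-fold limit lay PDH2 (smallest of its 3 folds 1.50162), MYB159 (1.50191) and Glyma.18G002932 (1.50824). Just outside it lay Glyma.03G053602 (1.49961), LOC100814100 (1.49958) and LOC100785622 (1.49718). These genes were picked as the nearest to the limit, so their closeness to it does not show how the folds were spread there.

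As background for the size of the list, edgeR's quasi-likelihood test with Benjamini-Hochberg adjustment over 34252 genes called 1.05% of genes lower in the GmZF351 overexpressor, 0.528% lower in the GmZF392 overexpressor and 0.599% lower in the GmNFYA overexpressor than in wild type. Of the 152 members, all of which passed its filter on low counts, 67 (44.1%), 71 (46.7%) and 52 (34.2%) were past the threshold in the same order, 32 of them in all 3 comparisons and 55 in none. The rule used these contrasts, so nothing is read from those counts.

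Clock and flowering genes were represented by E2, PRR3A and PRR3B. E2 is the maturity locus that encodes a soybean GIGANTEA protein (Glyma.10G221500, chromosome 10, 45369898 to 45391468, plus strand; all positions are those of the deposited table, annotation Gmax_508_Wm82.a4.v1). It had 20.4, 12.0 and 19.6 CPM in seeds overexpressing GmZF351, 22.46, 24.03 and 20.57 CPM in the GmZF392 overexpressor, 35.43, 21.85 and 19.97 CPM in the GmNFYA overexpressor and 53.4, 38.1 and 48.9 CPM in wild type. The first GmNFYA overexpressor library came within a few CPM of the lowest wild-type library, and the other 8 overexpressor libraries stood at 24.03 CPM or less. The mean was 2.70-fold below wild type in the GmZF351 overexpressor, 2.09-fold in the GmZF392 overexpressor and 1.82-fold in the GmNFYA overexpressor.

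PRR3A (Glyma.11G148362, chromosome 11, 11236816 to 11259666, minus strand) encodes a pseudo-response regulator that influences flowering time in soybean. It had 5.02, 2.93 and 6.24 CPM in seeds overexpressing GmZF351, 4.54, 5.50 and 4.42 CPM in the GmZF392 overexpressor, 9.89, 9.57 and 8.58 CPM in the GmNFYA overexpressor and 15.3, 12.7 and 17.6 CPM in wild type. Every library of the GmNFYA overexpressor was above every library of both zinc finger overexpressors and below every wild-type library. Its homeolog PRR3B (Glyma.12G073900, chromosome 12, 5493503 to 5508432, plus strand) showed no such step. PRR3B averaged 12.8 ± 3.3 CPM in the GmZF351 overexpressor, 11.6 ± 3.5 CPM in the GmZF392 overexpressor, 14.1 ± 1.8 CPM in the GmNFYA overexpressor and 24.02 ± 2.92 CPM in wild type (SD, n = 3 each).

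The clock family was assembled after its values had been seen, as 18 tested genes named for GIGANTEA, PRR, TOC1, LUX, LCL, ELF3, ELF4, FKF1 and ZTL. None of its 15 other tested genes passed the edgeR threshold against wild type in any overexpressor, in either direction. The other GIGANTEA gene (Glyma.20G170000) averaged 12.6 ± 4.3, 15.9 ± 3.5 and 13.3 ± 5.1 CPM with GmZF351, GmZF392 and GmNFYA overexpressed and 22.4 ± 6.0 CPM in wild type (SD, n = 3 each). Its libraries overlapped between the groups. LCL4, a morning-phased clock gene of the LHY and CCA1 type, ran from 52.2 to 128.3, from 67.2 to 146.4 and from 96.4 to 164.8 CPM in the same overexpressors and from 55.9 to 75.3 CPM in wild type. LCL4 thus varied more than 2-fold within each zinc finger overexpressor; whether the libraries differ in time of day was not tested.

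**Figure D3:**
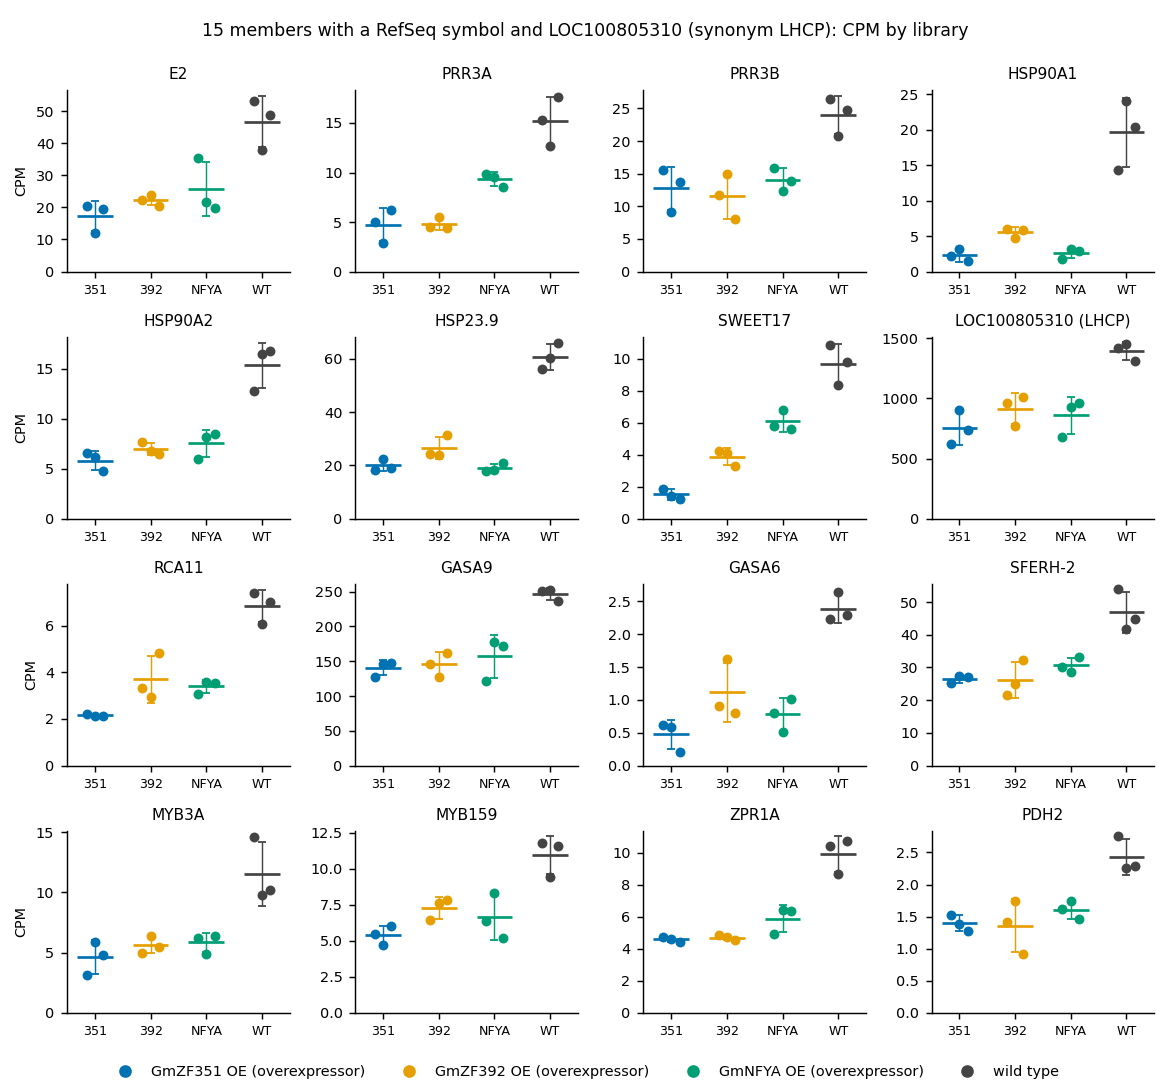
CPM in each library (points), with the mean (line) and SD (bars) of 3 libraries per genotype, for 15 members with a RefSeq symbol and for LOC100805310; vertical axes start at 0 and differ between panels. In each panel all 9 overexpressor points lie below the 3 wild-type points, as the rule requires, and SWEET17 and PRR3A differ most clearly among the overexpressors.

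Chaperone genes included HSP90A1, which had the largest mean difference of the members with a symbol. HSP90A1, for an HSP90 chaperone (Glyma.09G131500, chromosome 9, 33674366 to 33678193, minus strand), had 2.15, 3.25 and 1.49 CPM in seeds overexpressing GmZF351, 5.96, 4.77 and 5.92 CPM in the GmZF392 overexpressor, 1.77, 3.12 and 2.96 CPM in the GmNFYA overexpressor and 14.4, 24.1 and 20.4 CPM in wild type. It stood 8.38-fold below wild type in the GmZF351 overexpressor, 3.51-fold in the GmZF392 overexpressor and 7.37-fold in the GmNFYA overexpressor. HSP90A2 (Glyma.16G178800) averaged 5.81 ± 0.94, 6.96 ± 0.64 and 7.51 ± 1.39 CPM with GmZF351, GmZF392 and GmNFYA overexpressed and 15.3 ± 2.2 CPM in wild type. The small heat shock gene HSP23.9 (Glyma.12G013100) averaged 19.98 ± 2.25, 26.5 ± 4.1 and 18.9 ± 1.7 CPM in the same overexpressors and 60.8 ± 4.9 CPM in wild type (SD, n = 3 each). All 3 chaperone genes were at least 2-fold lower in every overexpressor.

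The abundant HSP90 genes did not share this. HSP90-1 averaged 646.0 CPM in the GmZF351 overexpressor, 601.2 CPM in the GmZF392 overexpressor, 618.9 CPM in the GmNFYA overexpressor and 634.8 CPM in wild type, and HSP90-2 averaged 430.5, 438.9 and 408.8 CPM against 458.7 CPM in wild type. Their adjusted p-values against wild type lay between 0.784 and 0.995 in edgeR, and their log2 differences between -0.24 and 0.10 under all 3 scalings tried, with the sign of HSP90-1 in the GmZF351 overexpressor positive and the others negative. Of the 42 tested genes of the heat shock list (symbols HSP and HSF), 3, 3 and 6 were called lower and 1, 1 and 1 higher than wild type in the GmZF351, GmZF392 and GmNFYA overexpressors. The members HSP90A1, HSP90A2 and HSP23.9 are all 3 of those called lower in the GmZF351 and GmZF392 overexpressors. They are 3 of the 6 in the GmNFYA overexpressor. The rule chose these members by the same contrasts, so nothing is read from the counts called lower. Over all genes tested, 1.05%, 0.528% and 0.599% were called lower and 1.13%, 1.67% and 0.966% higher. The median log2 difference of the list was -0.03, -0.05 and -0.06, against 0.01, -0.01 and -0.01 over all genes tested.

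SWEET17, a sugar transporter gene (Glyma.06G167000, chromosome 6, 13899833 to 13902581, plus strand), followed an order among the genotypes. It had 1.87, 1.44 and 1.23 CPM in seeds overexpressing GmZF351, 4.24, 4.10 and 3.28 CPM in the GmZF392 overexpressor, 5.81, 6.80 and 5.62 CPM in the GmNFYA overexpressor and 10.9, 8.39 and 9.78 CPM in wild type. No library of 1 genotype overlapped with a library of another. SWEET17 lies beside SWEET15 and SWEET16 on the same strand, with 17 kb between SWEET15 and SWEET16 and 11.17 kb between SWEET16 and SWEET17.

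Neither neighbour is a member. SWEET16 had 3.59, 2.45 and 3.52 CPM in seeds overexpressing GmZF351, 5.30, 4.60 and 5.28 CPM in the GmZF392 overexpressor, 15.11, 15.81 and 14.97 CPM in the GmNFYA overexpressor and 19.9, 14.6 and 13.5 CPM in wild type. It was called lower in both zinc finger overexpressors (edgeR adjusted p = 8.9e-06 and 6.7e-05) and not in the GmNFYA overexpressor (adjusted p = 0.943), where the libraries overlapped with wild type. SWEET15 was called lower in the GmNFYA overexpressor (10.7 ± 1.2 CPM against 20.4 ± 0.7 CPM in wild type, SD, n = 3 each, edgeR adjusted p = 0.00193) and not in the GmZF351 or GmZF392 overexpressor (adjusted p = 0.799 and 0.754). These are a member and 2 neighbours described side by side. How reads that fit several similar SWEET copies were treated was not analysed here. Of the 23 other tested SWEET genes, 2, 2 and 5 were called lower in the GmZF351, GmZF392 and GmNFYA overexpressors and 1, 0 and 0 higher. The shares over all genes tested were 1.05%, 0.528% and 0.599% lower and 1.13%, 1.67% and 0.966% higher.

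Photosynthesis genes included the most abundant member. LOC100805310 (Glyma.08G082900, chromosome 8, 6281186 to 6282624, plus strand), with the RefSeq synonym LHCP for a light-harvesting chlorophyll a/b-binding protein, had 617.9, 907.6 and 737.3 CPM in seeds overexpressing GmZF351, 964.0, 770.9 and 1014.2 CPM in the GmZF392 overexpressor, 679.7, 931.1 and 965.2 CPM in the GmNFYA overexpressor and 1422.1, 1457.0 and 1315.2 CPM in wild type. Libraries of each overexpressor were spread widely, and the highest of the 9 lay below the lowest wild-type library, as the rule requires. Per exon length the level was 807.5, 1022.5 and 980.5 TPM in the GmZF351, GmZF392 and GmNFYA overexpressors and 1513.3 TPM in wild type. RCA11 (Glyma.11G221000), one of the genes for Rubisco activase, which keeps the carbon-fixing enzyme Rubisco active, averaged 2.15 ± 0.04, 3.699 ± 1.014 and 3.39 ± 0.29 CPM in the same overexpressors and 6.85 ± 0.68 CPM in wild type (SD, n = 3 each).

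The related genes lay on the same side or near wild type. The 3 other light-harvesting genes with a symbol or synonym had fitted log2 differences of -1.10 to -0.31 over the 3 overexpressors, and 1 of those 9 differences passed the edgeR threshold (LHCB1-7 in the GmNFYA overexpressor, 10.02 against 21.94 CPM in wild type, adjusted p = 0.0192). The photosynthesis list of 6 tested genes had median log2 differences of -0.41, -0.36 and -0.43 in the GmZF351, GmZF392 and GmNFYA overexpressors, with 0, 0 and 1 called lower and none called higher. Of all genes tested, 1.05%, 0.528% and 0.599% were called lower. RCA14 and RCAALPHA, far more abundant than RCA11, averaged 99.4 and 83.7 CPM in seeds overexpressing GmZF351, 121.6 and 123.5 CPM in the GmZF392 overexpressor, 117.1 and 118.3 CPM in the GmNFYA overexpressor and 113.5 and 110.7 CPM in wild type, with no call.

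Small secreted peptides and iron storage were also represented. GASA genes encode short cysteine-rich peptides regulated by gibberellin. GASA9 (Glyma.06G044400, chromosome 6, 3367701 to 3368754, minus strand) was the third most abundant member per exon length, and had 128.0, 146.4 and 147.1 CPM in seeds overexpressing GmZF351, 146.6, 127.3 and 162.3 CPM in the GmZF392 overexpressor, 121.9, 177.9 and 171.3 CPM in the GmNFYA overexpressor and 250.9, 251.8 and 236.6 CPM in wild type. GASA6 (Glyma.04G179500) averaged 0.473 ± 0.226, 1.12 ± 0.45 and 0.779 ± 0.254 CPM in the same overexpressors and 2.39 ± 0.23 CPM in wild type. Among 24 other tested GASA genes, GASA29 was called lower in the GmZF351 overexpressor, and GASA26 was called higher in the GmZF392 overexpressor and lower in the GmNFYA overexpressor. The ferritin gene SFERH-2 (Glyma.01G124500) averaged 26.6 ± 1.2, 26.2 ± 5.4 and 30.7 ± 2.3 CPM with GmZF351, GmZF392 and GmNFYA overexpressed and 46.9 ± 6.3 CPM in wild type (SD, n = 3 each). The more abundant ferritin genes were not called in any overexpressor; H-1, the highest, averaged 384.2, 367.4 and 444.7 CPM in the overexpressors and 533.5 CPM in wild type.

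Other members with a symbol included 2 MYB genes and ZPR1A. MYB3A (Glyma.20G013000), a MYB transcription factor gene, averaged 4.60 ± 1.41, 5.63 ± 0.71 and 5.85 ± 0.82 CPM with GmZF351, GmZF392 and GmNFYA overexpressed and 11.5 ± 2.6 CPM in wild type. MYB159 (Glyma.07G216000) averaged 5.40 ± 0.65, 7.29 ± 0.76 and 6.62 ± 1.60 CPM in the overexpressors and 10.97 ± 1.32 CPM in wild type (SD, n = 3 each). They are 2 of 64 tested genes with a MYB symbol, of which 2, 1 and 1 were called lower and 1, 4 and 2 higher in the GmZF351, GmZF392 and GmNFYA overexpressors. The rule chose those 2 members by the same contrasts, so nothing is read from the counts called lower. The shares over all genes tested were 1.05%, 0.528% and 0.599% lower and 1.13%, 1.67% and 0.966% higher. ZPR1A (Glyma.09G268100) encodes a little zipper protein, a class that in Arabidopsis inhibits HD-ZIP III transcription factors. Its libraries were close together, at 4.43 to 4.73, 4.52 to 4.85 and 4.89 to 6.40 CPM in the overexpressors and 8.65 to 10.7 CPM in wild type. None of the 4 other tested ZPR genes was called in any overexpressor. PDH2 (Glyma.11G233900), at the lower limit of level and of fold, averaged 1.40 ± 0.13, 1.36 ± 0.42 and 1.60 ± 0.14 CPM in the overexpressors and 2.43 ± 0.28 CPM in wild type.

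**Figure D4:**
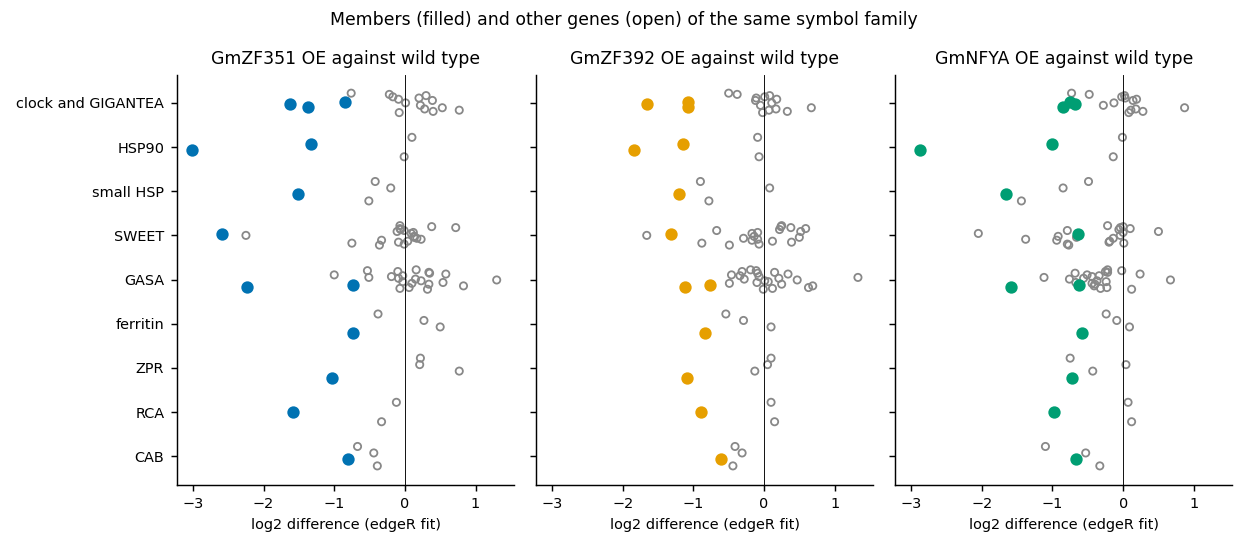
Fitted log2 difference from wild type (horizontal axis, edgeR) of genes with a wild-type mean of 2 CPM or more, by symbol family and overexpressor; filled points are members and open points other genes of the family. Members lie at -0.58 or lower, where the rule puts them, and the other HSP90, ferritin and Rubisco activase genes lie nearer 0.

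The members with the largest differences mostly carry no gene symbol. Glyma.03G069100 (LOC102668539) had the largest, a mean log2 difference of -3.85 over the 3 overexpressors. It had 0.0956, 0.266 and 0 CPM in seeds overexpressing GmZF351, 0.555, 0.337 and 0.215 CPM in the GmZF392 overexpressor, 0.108, 0 and 0 CPM in the GmNFYA overexpressor and 2.75, 2.56 and 2.46 CPM in wild type. Several of these libraries lie at or under the level that a count of 0 allows, so the size of its difference in the GmNFYA overexpressor is not well determined at this depth. Glyma.13G120600 (LOC112998760) varied widely within a genotype. It had 0.717, 0.904 and 0.267 CPM in seeds overexpressing GmZF351, 0.505, 0.112 and 0.592 CPM in the GmZF392 overexpressor, 0.215, 2.46 and 2.71 CPM in the GmNFYA overexpressor and 3.27, 7.33 and 8.38 CPM in wild type.

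Among the 10 largest mean differences, 4 lay on chromosome 13. Beside Glyma.13G120600 these were Glyma.13G053700 (mean log2 difference -2.86), Glyma.13G048200 (-2.58) and Glyma.13G029600 (-2.17). Glyma.13G048200 (LOC106795447) averaged 1.27 ± 0.86, 1.54 ± 0.28 and 1.64 ± 0.23 CPM with GmZF351, GmZF392 and GmNFYA overexpressed and 9.11 ± 1.07 CPM in wild type (SD, n = 3 each). Glyma.03G070300 (LOC100780069) averaged 3.49 to 4.57 CPM in the overexpressors and 17.8 CPM in wild type. The other genes of this group were HSP90A1 (-2.59), Glyma.09G006500 (-2.30), Glyma.16G200900 (-2.29) and Glyma.02G297100 (-2.24).

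Members of high level per exon length also included genes without a symbol. Glyma.03G209200 (LOC100777560) reached 407.6, 354.1 and 419.2 TPM in the GmZF351, GmZF392 and GmNFYA overexpressors and 704.5 TPM in wild type. Glyma.18G232700 had 28.2, 45.5 and 25.8 CPM in seeds overexpressing GmZF351, 30.1, 22.6 and 39.3 CPM in the GmZF392 overexpressor, 21.9, 22.7 and 27.9 CPM in the GmNFYA overexpressor and 125.7, 95.0 and 80.2 CPM in wild type. It was the only one of the 6 members at 100 CPM or more that stood over 2-fold lower in every overexpressor. The next in level were Glyma.04G167900 (177.7 TPM in wild type), Glyma.13G275300 (107.6), Glyma.13G176300 (97.5), Glyma.07G136500 (87.9) and Glyma.18G096400 (86.9), at 1.52-fold to 2.60-fold below wild type in each overexpressor.

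The members were shorter than other genes. Their median exon length was 1392.5 bases, against 1942.0 bases for all genes with a wild-type mean of 2 CPM or more, and 25% against 10.9% were under 1000 bases. The share of genes that met the rule was 1.23% under 1000 bases, 0.631% from 1000 to 2000 bases and 0.295% above. Among all genes at 2 CPM or more, the median log2 difference under 1000 bases was -0.03, -0.16 and -0.29 (GmZF351, GmZF392, GmNFYA). From 2000 bases it was -0.06, 0.05 and 0.09. Short genes thus lay lower in general in the GmZF392 and GmNFYA overexpressors. How far this trend made the members short was not tested. The libraries themselves differed in their trend of counts with exon length, from -0.340 to 0.308 on the log2 scale per doubling of length. With counts corrected for this trend, all 152 members were still below wild type in each overexpressor. At least 1.5-fold lower levels then held for 152 members in the GmZF351 overexpressor, 145 in the GmZF392 overexpressor and 128 in the GmNFYA overexpressor. With the corrected counts 141 genes met the whole rule, 116 of them members.

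Members were spread over all 20 chromosomes and 1 scaffold. Chromosome 13 held 22, or 1.12% of its genes at 2 CPM or more, chromosome 8 held 16 and chromosome 18 held 15, whereas chromosome 19 held 1. Another member lay within 100 kb of 14 members (9.21%), and a member lay within 100 kb of 5.47% of the 28210 other genes at 2 CPM or more. The 14 form 7 pairs. One of them is E2 and LOC100527753 on chromosome 10, in a span of 64.0 kb, and another is ZPR1A and LOC100790517 on chromosome 9, in 48.7 kb. Chromosome 18 held 3 of the pairs.

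The comparisons between overexpressors ask whether the members stood at the same level in each. The rule does not use the differences between overexpressors, but it bounds each against wild type, which limits how far they can differ. The shares of members called are thus shaped by the rule, and nothing is read from their distance to the shares of all genes. The differences were tested with edgeR's quasi-likelihood test adjusted over all 34252 genes. Between the GmZF392 and GmZF351 overexpressors 2 of 152 members passed (1.32%), against 0.4% of all genes tested and 0.335% of genes at 2 CPM or more. Between the GmNFYA and GmZF351 overexpressors 4 passed (2.63%), against 1.1% and 1.12%. Between the GmNFYA and GmZF392 overexpressors 1 passed (0.658%), against 1.06% and 0.934%. The test of any difference among the 3 overexpressors found 3 members (1.97%), against 1.5% and 1.38%. These counts are small, and single libraries moved them. The first fell to 1 without library 1 of the GmZF351 overexpressor or library 1 or 2 of the GmZF392 overexpressor and to 0 without library 3 of the GmZF351 overexpressor. The second fell to 2 without library 2 or 3 of the GmNFYA overexpressor or any wild-type library, and the third to 0 without library 2 or 3 of the GmZF392 overexpressor or any library of the GmNFYA overexpressor. The count of any difference was 5 without library 2 of the GmZF351 overexpressor.

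The edgeR calls of the pairwise comparisons came from 4 genes, and each was higher in the GmNFYA overexpressor than in the GmZF351 overexpressor. DESeq2's test also called 3 other members lower in the GmNFYA overexpressor than in the GmZF351 overexpressor, namely Glyma.06G296300 (log2 -0.92, adjusted p = 0.0434), Glyma.07G136500 (-0.46, 0.048) and Glyma.08G141000 (-0.71, 0.0145). It called Glyma.07G136500 lower than in the GmZF392 overexpressor as well (-0.61, 0.00233). Higher in the GmNFYA than in the GmZF351 overexpressor by DESeq2's test, and not by edgeR's, were Glyma.03G139900 (log2 1.37, adjusted p = 0.00243) and Glyma.13G067500 (1.78, 0.0332). SWEET17 was higher by log2 1.95 (SE 0.20, edgeR adjusted p = 1.9e-04) in the GmNFYA overexpressor and by log2 1.27 (SE 0.21, adjusted p = 0.0122) in the GmZF392 overexpressor, both against the GmZF351 overexpressor. The remaining difference, between the GmNFYA and GmZF392 overexpressors, was log2 0.68 (SE 0.19) and missed the threshold (adjusted p = 0.139), although the libraries did not overlap. The call against the GmZF351 overexpressor in the GmZF392 overexpressor ended without library 3 of the GmZF351 overexpressor (adjusted p = 0.0846) or library 1 or 2 of the GmZF392 overexpressor (0.0652 and 0.0512), with 1.1e-04 the lowest over 18 settings.

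Glyma.16G150300 (LOC100813880, chromosome 16, 31262735 to 31264586, minus strand) had the same order. It had 3.25, 3.14 and 3.04 CPM in seeds overexpressing GmZF351, 6.66, 6.68 and 6.19 CPM in the GmZF392 overexpressor, 9.57, 6.96 and 7.51 CPM in the GmNFYA overexpressor and 12.97, 13.42 and 11.67 CPM in wild type. It was higher by log2 1.29 (SE 0.16, edgeR adjusted p = 8.5e-04) in the GmNFYA overexpressor and by log2 0.96 (SE 0.16, adjusted p = 0.013) in the GmZF392 overexpressor than in the GmZF351 overexpressor. The call in the GmZF392 overexpressor ended without library 1 or 3 of the GmZF351 overexpressor (adjusted p = 0.0738 and 0.0921) or library 1 of the GmZF392 overexpressor (0.0629), with 2.1e-04 the lowest over 18 settings. Both SWEET17 and Glyma.16G150300 kept their call between the GmNFYA and GmZF351 overexpressors under all 18 alternative settings.

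PRR3A was higher in the GmNFYA overexpressor than in the GmZF351 overexpressor (log2 0.94, SE 0.20, edgeR adjusted p = 0.041) and than in the GmZF392 overexpressor (log2 0.99, SE 0.20, adjusted p = 0.0304). Glyma.18G002932, on chromosome 18, was higher in the GmNFYA overexpressor than in the GmZF351 overexpressor (log2 1.74, SE 0.36, adjusted p = 0.0342). It had 1.40, 1.94 and 1.60 CPM in the GmNFYA overexpressor, against 0.717, 0.372 and 0.320 CPM in the GmZF351 overexpressor. These calls ended in several of the 18 alternative settings. With only the 9 overexpressor libraries in the fit, the adjusted p was 0.0877 and 0.0694 for PRR3A against the GmZF351 and GmZF392 overexpressors and 0.104 for Glyma.18G002932, which also missed the threshold with the replicate block (0.0541). That of PRR3A against the GmZF351 overexpressor ended without library 1 or 2 of the GmZF351 overexpressor (adjusted p = 0.0814 and 0.113), library 1 or 2 of the GmZF392 overexpressor (0.0663 and 0.0625), any library of the GmNFYA overexpressor (0.12, 0.156 and 0.103) or any wild-type library (0.0576, 0.0615 and 0.0554), with 0.00187 the lowest of 18 settings. That of PRR3A against the GmZF392 overexpressor ended without any library of the GmZF392 overexpressor (0.136, 0.0847 and 0.131) or of the GmNFYA overexpressor (0.0825, 0.143 and 0.0892), with 8.2e-04 the lowest. The Glyma.18G002932 call ended without library 2 or 3 of the GmZF351 overexpressor (0.123 and 0.158), any library of the GmNFYA overexpressor (0.056, 0.156 and 0.106) or any wild-type library (0.0504, 0.0641 and 0.0604), with 0.00237 the lowest.

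**Figure D5:**
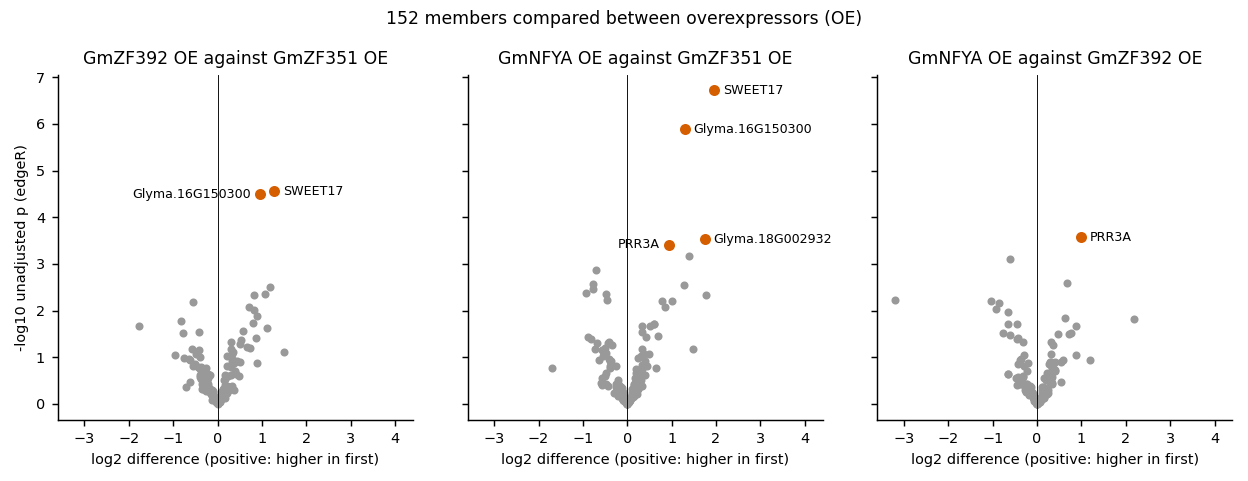
Log2 difference (horizontal axis) and -log10 of the unadjusted edgeR p (vertical axis) of the 152 members in each comparison of 2 overexpressors (OE); orange points passed the threshold adjusted over all genes tested. The 7 calls lie to the right, and the other members cluster near 0.

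HSP90A1 differed by log2 1.18 (SE 0.33) between the GmZF392 and GmZF351 overexpressors and by log2 -1.04 (SE 0.32) between the GmNFYA and GmZF392 overexpressors. Neither difference passed (edgeR adjusted p = 0.239 and 0.227), and its 3 libraries of the GmZF392 overexpressor lay above the 6 of the GmZF351 and GmNFYA overexpressors. For any difference among the 3 overexpressors, DESeq2's test called HSP90A1 (adjusted p = 0.0161) and edgeR's did not (adjusted p = 0.142). E2, PRR3B, HSP90A2, HSP23.9, LOC100805310, GASA9 and SFERH-2 had adjusted p-values of 0.291 or more in each of the comparisons. For the most abundant of them, LOC100805310, the differences were log2 0.19, 0.13 and -0.06 (SE 0.22 each), which at this precision does not show equal levels.

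Over the whole list the overexpressors were ranked in no single order. The lowest mean was in the GmZF351 overexpressor for 66 members, in the GmZF392 overexpressor for 41 and in the GmNFYA overexpressor for 45. The folds of the 3 overexpressors lay within 1.2 times of each other for 45 members, and for 12 the largest was 2 times the smallest or more. The median log2 difference between overexpressors was -0.02 for GmZF392 against GmZF351, 0.01 for GmNFYA against GmZF351 and 0.04 for GmNFYA against GmZF392. Without regard to sign the medians were 0.23, 0.24 and 0.21, against 0.17, 0.19 and 0.16 for all genes at 2 CPM or more. Unadjusted p-values under 0.05 were found for 19, 27 and 22 members (12.5%, 17.8% and 14.5%), against 9.56%, 12.9% and 9.83% of genes at 2 CPM or more. The bounds of the rule shape these values of the members as well.

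Many members remain without a described function here. Of the 152, 129 could be paired with a RefSeq gene, 15 of which have a symbol and 114 a LOC number, and 23 were not paired. Among the LOC numbers, LOC100499976 (Glyma.11G160000) has an expansin as its synonym, a class of proteins that loosen cell walls. It averaged 10.8 ± 0.5, 11.9 ± 2.2 and 12.7 ± 1.0 CPM with GmZF351, GmZF392 and GmNFYA overexpressed and 20.1 ± 1.0 CPM in wild type. LOC100800387 (Glyma.17G049800), a gene of the cupin family that includes seed storage globulins, averaged 2.80, 5.28 and 5.02 CPM in the overexpressors and 8.59 CPM in wild type; GY1, a glycinin gene of the same family, was higher in the overexpressors (211.4, 322.3 and 142.5 CPM against 35.04 CPM in wild type). Of 10 tested storage protein genes 6, 5 and 5 were called higher and none lower in the GmZF351, GmZF392 and GmNFYA overexpressors, against 1.13%, 1.67% and 0.966% of all genes tested called higher.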

How the data were processed

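Per the file headers, the authors deposited raw counts of paired-end fragments per gene from featureCounts 2.0.1 (exon features, annotation Gmax_508_Wm82.a4.v1). Each gene's exon length came with them. The featureCounts command sets neither strand nor multimapping. Counts of overlapping genes and close copies may be affected, and how reads that fit more than 1 gene were treated was not analysed here. The submitters' processing notes name HISAT2 and DESeq2, without versions. Here the counts were turned into CPM (column sums) and TPM (exon length). The members, gene lists and named genes were chosen with earlier results of these data known. The test was edgeR 4.0.16's robust quasi-likelihood F-test under R 4.3.3, with TMM scaling and 1 fit of all 12 libraries; filterByExpr (minimum count 10, total 15) left 34252 genes, with Benjamini-Hochberg adjustment and a threshold of 0.05. The step was tested on simulated data. Overexpressors were compared with each other; the alternatives, with DESeq2 1.42.0 among them, are described in the closing section. Genes were named from RefSeq (Glycine_max_v4.0) where spans overlapped by at least 50% of their union, which paired 38253 genes (81.2%). Named were the members with a RefSeq symbol, the 10 of highest wild-type TPM, the 10 of largest mean log2 difference, those called between overexpressors, and the 3 nearest on each side of the 1.5-fold limit. LOC100499976, LOC100800387, the members that DESeq2 alone called between overexpressors, and the genes related to members were named after their values were seen. Protein relatives and promoter motifs of the members were not analysed here. Figures were drawn with matplotlib 3.10.9.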

Additional observations from a re-analysis of the deposited data

Results flagged for a closer look

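Between overexpressors, 7 differences of members passed a test of the difference itself (edgeR's quasi-likelihood test, adjusted over all genes tested) although the same genes lay below wild type in each overexpressor. SWEET17 was higher by log2 1.27 in the GmZF392 overexpressor and by log2 1.95 in the GmNFYA overexpressor than in the GmZF351 overexpressor. Glyma.16G150300 (LOC100813880) was higher by log2 0.96 in the GmZF392 overexpressor and by log2 1.29 in the GmNFYA overexpressor than in the GmZF351 overexpressor. PRR3A was higher in the GmNFYA overexpressor by log2 0.94 than in the GmZF351 overexpressor and by log2 0.99 than in the GmZF392 overexpressor. Glyma.18G002932 was higher by log2 1.74 in the GmNFYA overexpressor than in the GmZF351 overexpressor. The calls were not equally stable over the 18 alternative settings. Those of SWEET17 and Glyma.16G150300 were kept in 18 settings for GmNFYA and in 15 for GmZF392. The PRR3A calls were kept in 7 (against GmZF351) and 11 (against GmZF392), and the Glyma.18G002932 call in 8.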

How the results depend on the processing

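All 152 members stayed below wild type in each overexpressor with TMM-scaled CPM and with exon-length correction (a setting chosen after seeing the data), and the median log2 over genes at 2 CPM or more moved by less than 0.1 between these scalings. Members were chosen at 1.5-fold or more below wild type, so their staying below it under shifts this small is no test of the list. The rule found 39 genes at a minimum of 2-fold and 291 with no minimum wild-type level. It found 136 with 0.5 CPM added (131 shared with the 152), 107 at a minimum of 5 CPM, 209 with overlap allowed, 127 with TMM scaling (122 shared) and 141 with exon-length correction (116 shared). Leaving out each library gave 146 to 227. In comparisons between overexpressors, calls among members ran from 0 to 2 for GmZF392 against GmZF351, 2 to 6 for GmNFYA against GmZF351, 0 to 1 for GmNFYA against GmZF392 and 2 to 5 for any difference when 1 library was left out. For GmNFYA against GmZF351 there were 2 with only the 9 overexpressor libraries in the fit and 9 with DESeq2's test. For GmNFYA against GmZF392 there were 0 with only those 9 libraries, 2 with exon-length offsets and 2 with DESeq2. For any difference there were 6 with exon-length offsets and 9 with DESeq2. The causes were not tested. None of the differences called between overexpressors reversed direction in these settings. The replicate numbers of the labels do not pair the libraries: deviations of same-numbered libraries from their group means correlated at -0.69 to 0.57, with 8 of 18 pairs over 0.1. With the number as a block the calls were 2, 3, 1 and 3 in the same order, and the Glyma.18G002932 call ended (log2 1.77, adjusted p = 0.0541). Depth limits members at a few counts per library, such as Glyma.03G069100.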
